A study of Mus musculus with 8 samples.

Results

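The 10 genes described here form the core of the mammalian circadian clock and its first line of output: the period genes Per1, Per2 and Per3, the cryptochrome genes Cry1 and Cry2, the activators Arntl (also named Bmal1) and Clock, the nuclear receptors Nr1d1 and Nr1d2 (REV-ERB alpha and beta), and the output gene Dbp. They were chosen by symbol, and all 10 were found among the 52636 genes of the count table. All 10 had a count in every library and were therefore among the 14598 genes tested. The libraries were made from RNA of mesenchymal stem and progenitor cells (MSPCs) of the bone marrow, the stromal cells that produce CXCL12 and stem cell factor for hematopoietic cells. There were 4 control (CTR, Flk2-cre+ Cxcr4 fl/+) and 4 conditional knockout mice (cKO, Flk2-cre+ Cxcr4 fl/fl), with 1 mouse per library. The study asked how niche cells respond when hematopoietic progenitors lack CXCR4.

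Both groups carried Flk2-cre, which acts in hematopoietic progenitors from the multipotent stage on and not in the MSPCs that were sequenced, and which is carried on the Y chromosome. In those progenitors CTR mice kept a functional Cxcr4 allele and cKO mice did not. The mice were C57BL/6 and carried a GFP reporter in the Kitl locus, the gene of stem cell factor. The reporter also lowers stem cell factor. In the paper, cKO mice crossed to Kitl GFP/+ had membrane-bound stem cell factor at the wild-type level and hematopoietic stem cell numbers back at physiological levels. The labels give an age of 6 weeks for all of them, while the methods give an older range for mice in general. Bone marrow was digested with collagenase, and PDGFRα+ SCF-GFP+ cells without CD45, Ter119, CD31 or CD144 were sorted. No hour of collection is given in the sources used here.

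Each sample title carries a number, and the labels do not say what it stands for. CTR2, CTR4, cKO2 and cKO4 have numbers from 26 to 32, and CTR1, CTR3, cKO1 and cKO3 have numbers from 67 to 86. Each range thus holds 2 CTR and 2 cKO libraries, and the clock genes were compared both between genotypes and between the ranges. Total counts were between 32188963 and 38216877 in the libraries numbered 26 to 32 and between 31047344 and 33070784 in those numbered 67 to 86. The number of genes with a count was higher in the first range (19363 to 20684) than in the second (18366 to 18750). The cells had the expression of MSPCs, with Lepr, the leptin receptor, between 3586 and 5039 counts per 1000000 (CPM) and Cxcl12 between 39694 and 50718 CPM. Cd3e and Tek were at 0 in every library, and Ptprc, which encodes CD45, did not exceed 0.98 CPM.

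The circadian clock is a loop of transcription and repression that runs in almost every cell. The proteins ARNTL and CLOCK bind E-box sequences and activate the Per, Cry, Nr1d and Dbp genes. PER and CRY proteins then accumulate and repress ARNTL and CLOCK. REV-ERB proteins repress Arntl through elements they share with the ROR activators, and DBP activates genes through D-box sequences. Genes of the loop therefore reach their peaks at different times of the day, with Arntl roughly opposite to Nr1d1 and Dbp, and with the Per and Cry genes following Nr1d1 and Dbp in most tissues. In bone marrow, the release of stem cells and the expression of CXCL12 are known to follow the time of day.

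Of the 10 genes, 9 had an entry among the RefSeq promoters of GRCm38.p6, which run from 250 bases before to 50 bases after a gene's start, with 13 windows in all; Per2 had none. The windows were searched on both strands for the E-box (CACGTG), the E-prime box (CACGTT), the D-box (TTATGTAA or TTACGTAA), the element of ROR and REV-ERB (TAGGTCA or TGGGTCA) and the cAMP response element (TGACGTCA). The 250 bases before the start are printed here for Per3 and Cry1, whose levels differed most clearly between the title number ranges apart from Per2, and for Per1 and Nr1d1, which carry an element of the E-box type. Sequences run 5′ to 3′ on the strand of the gene, and capitals mark the matches.
Per3, chr4:151044666-151044915, minus strand: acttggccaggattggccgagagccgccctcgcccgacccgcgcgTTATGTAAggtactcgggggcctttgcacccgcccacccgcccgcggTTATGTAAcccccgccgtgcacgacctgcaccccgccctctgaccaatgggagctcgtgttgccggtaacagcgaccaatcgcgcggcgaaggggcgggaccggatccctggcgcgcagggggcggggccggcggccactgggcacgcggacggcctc
Cry1, chr10:85185055-85185304, minus strand: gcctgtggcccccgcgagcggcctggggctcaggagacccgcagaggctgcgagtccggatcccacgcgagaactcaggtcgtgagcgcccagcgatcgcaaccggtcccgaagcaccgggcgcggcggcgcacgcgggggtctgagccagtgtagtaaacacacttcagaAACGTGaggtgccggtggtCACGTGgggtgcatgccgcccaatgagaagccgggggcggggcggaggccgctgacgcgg
Per1, chr11:69098699-69098948, plus strand: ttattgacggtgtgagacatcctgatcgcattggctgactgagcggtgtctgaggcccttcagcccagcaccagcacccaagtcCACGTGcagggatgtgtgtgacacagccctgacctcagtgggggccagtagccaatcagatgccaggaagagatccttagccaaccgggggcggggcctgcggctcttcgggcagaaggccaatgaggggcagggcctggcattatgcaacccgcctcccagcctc
Nr1d1, chr11:98775378-98775627, minus strand: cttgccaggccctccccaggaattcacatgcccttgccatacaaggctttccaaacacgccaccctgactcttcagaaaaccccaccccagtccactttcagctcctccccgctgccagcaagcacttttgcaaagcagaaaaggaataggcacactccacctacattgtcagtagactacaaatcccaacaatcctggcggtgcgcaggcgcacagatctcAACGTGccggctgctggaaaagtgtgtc

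The Per3 sequence holds 2 D-boxes, which begin 205 and 158 bases before the start. D-boxes occurred in 1.06% of all 32851 promoter windows. Cry1 has an E-box that begins 60 bases before the start and, on the other strand, an E-prime box that begins 79 bases before it. The E-box of Per1 begins 166 bases before the start of one of its 2 windows. Nr1d1 has an E-prime box on the other strand 28 bases before the start, and Cry2, not printed, has one 166 bases before. E-boxes occurred in 7.15% and E-prime boxes in 4.68% of all windows. The Arntl window that starts at 113207261 on chromosome 7 holds an element of ROR and REV-ERB from 31 to 37 bases after the start, an element found in 6.45% of windows. No match to the cAMP response element lay in the 13 windows, against 1.79% of all windows. The matches did not overlap each other, and a match of letters is not a measured binding site.

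All 10 genes were expressed in MSPCs. On the scale of CPM per kilobase of exon (RPKM), which allows levels of different genes to be compared, Nr1d1 was highest at 23.3 ± 10.9 (SD, n = 8 libraries). It was followed by Cry1 at 13.2 ± 3.18, Nr1d2 at 9.99 ± 2.87 and Cry2 at 9.75 ± 2.03 RPKM. Arntl at 5.92 ± 1.15, Dbp at 5.30 ± 1.68 and Clock at 5.24 ± 0.744 RPKM formed the middle of the order. The period genes were the lowest, with Per1 at 3.50 ± 1.67, Per2 at 2.68 ± 1.98 and Per3 at 0.758 ± 0.341 RPKM. Between neighbors in this order, Cry2 was above Arntl and Per2 was above Per3 in all 8 libraries. Nr1d2 was above Cry2 in 5, Arntl above Dbp in 5 and Dbp above Clock in 4 of the 8 libraries, so that these neighbors cannot be ordered. The other neighbors were in the stated order in 6 or 7 libraries. Apart from Cry1 and Nr1d2, Cry2 and Arntl, and Clock and Per1, the means of neighbors differed by less than the larger of their SDs.

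**Figure D1:**
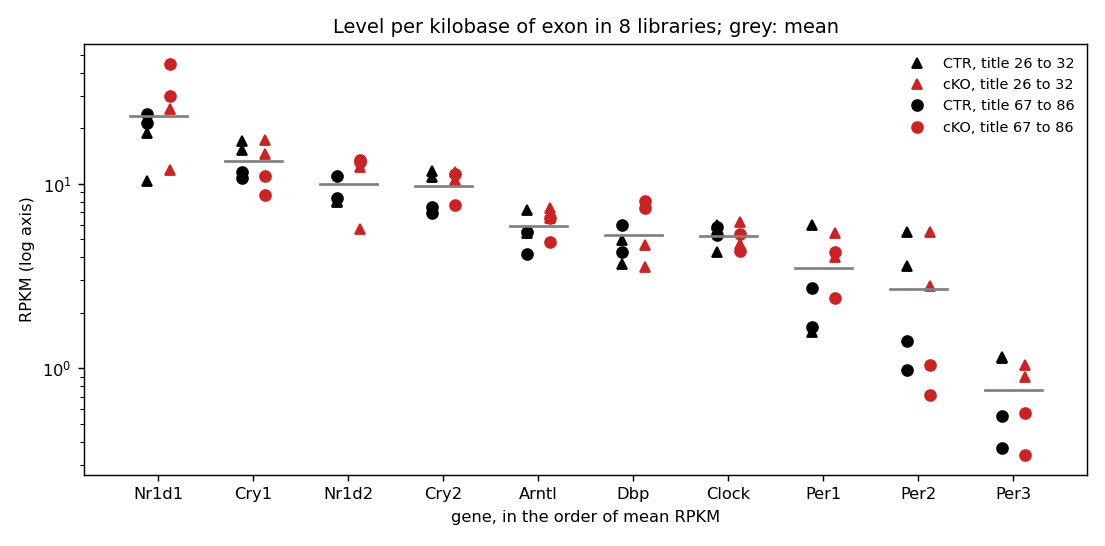
Level of each clock gene in RPKM (log axis) in every library, ordered by the mean (grey line). Black points are CTR and red points are cKO, triangles are title numbers 26 to 32 and circles 67 to 86. Per2, Per3 and Cry1 have all 4 triangles above all 4 circles, and Nr1d1 spans 10.4 to 44.7 RPKM.

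The genes differed in how much they varied among the 8 mice. Per2 varied most, with a highest level 7.66-fold above the lowest and a coefficient of variation of 73.9%. Its SD on the log2 CPM scale, 1.16, was larger than that of 97.0% of the genes tested. Per1 varied 3.80-fold, Nr1d1 4.30-fold and Per3 3.42-fold between the lowest and the highest library. Clock, the activator whose transcript is known to cycle little, varied least, 1.45-fold, with a coefficient of variation of 14.2%. Arntl, its partner, varied 1.77-fold. The genotype did not order the libraries of any of the 10 genes, as the next comparison shows.

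Between genotypes, 0 of the 10 clock genes passed an adjusted p-value of 0.05 by edgeR's quasi-likelihood test, Benjamini-Hochberg adjusted, and their unadjusted p-values were under 0.05 in 0 cases. Across all 14598 genes tested, 0% passed the adjusted threshold and the unadjusted p-value of 4.43% was under 0.05. The CTR and cKO libraries overlapped for all 10 genes, while 2.62% of the tested genes had groups that did not overlap. The 10 genes had a median log2 fold change of 0.16 (median over all genes 0.00), with 6 above 0 and 4 below. DESeq2 and limma-voom also called 0 of the 10. At an unadjusted p-value under 0.05, the likelihood ratio test of DESeq2 with the range of title numbers as a term had 1, Nr1d1, and its Wald test and limma-voom had 0. Of all 14598 genes, these tests had 886, 757 and 669 under that value, in the same order.

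Nr1d1, the repressor of Arntl, had a mean of 86.2 ± 41.7 CPM in cKO and 57.2 ± 17.9 CPM in CTR (n = 4 each). Its log2 fold change was 0.59 (SE 0.36, 95% interval -0.22 to 1.40, adjusted p = 0.999 by edgeR's quasi-likelihood test, Benjamini-Hochberg adjusted). cKO3 had the highest Nr1d1 level of all 8 libraries and CTR4 the lowest, and the log2 fold change was 0.27 without cKO3 and 0.39 without CTR4. Per1, an immediate early as well as a clock gene, was at 22.6 ± 6.94 CPM in cKO and 16.9 ± 11.6 CPM in CTR, with a log2 fold change of 0.42 and a 95% interval from -0.52 to 1.36. For Per1 the value was 1.00 without CTR2, and 0.21, 0.22 and 0.25 without CTR4, CTR3 and cKO2. The log2 fold changes of Nr1d2 (0.33), Dbp (0.33), Arntl (0.18) and Cry2 (0.15) were also above 0. Those of Per2 (-0.20), Per3 (-0.18), Cry1 (-0.08) and Clock (-0.06) were below 0.

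The intervals show how large a genotype difference these libraries could still hold in a fit without the title number range as a term. The interval of Clock was the narrowest, from -0.38 to 0.27, and that of Arntl ran from -0.22 to 0.59. For Cry1 it ran from -0.59 to 0.42 and for Cry2 from -0.29 to 0.58. The interval of Per2 was the widest, from -1.71 to 1.32, since Per2 varied strongly between libraries of the same genotype. That variation includes the difference between the title number ranges. With the range as a term, the genotype log2 fold change was -0.28 for Per2 and -0.13 for Per3. Their unadjusted p-values by edgeR's quasi-likelihood test were then 0.329 and 0.625. Within the title number ranges, the difference between cKO and CTR had the same sign in both ranges for 7 of the 10 genes, and Dbp, Cry2 and Clock were the exceptions. For Dbp it was -0.07 on the log2 CPM scale in the range 26 to 32 and 0.62 in the range 67 to 86. No clock gene had an unadjusted p-value under 0.05 in the test of whether the genotype difference itself differed between ranges (0 of 10 against 3.44% of all genes tested).

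Genes that respond to handling of the cells were also examined. Of 10 immediate early genes listed, 9 were tested, and all 9 had a lower mean in cKO. By edgeR's quasi-likelihood test, 0 of the 9 passed the adjusted threshold, and 5 were under an unadjusted p-value of 0.05, Fosb, Fos, Jun, Ier2 and Zfp36, against 4.43% of all genes. Their summed level, Atf3 included, was between 788 and 1105 CPM in cKO and between 1196 and 1299 CPM in CTR. Per1 had the opposite direction, and the part of these genes in the genotype values of the clock genes was not tested.

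**Figure D2:**
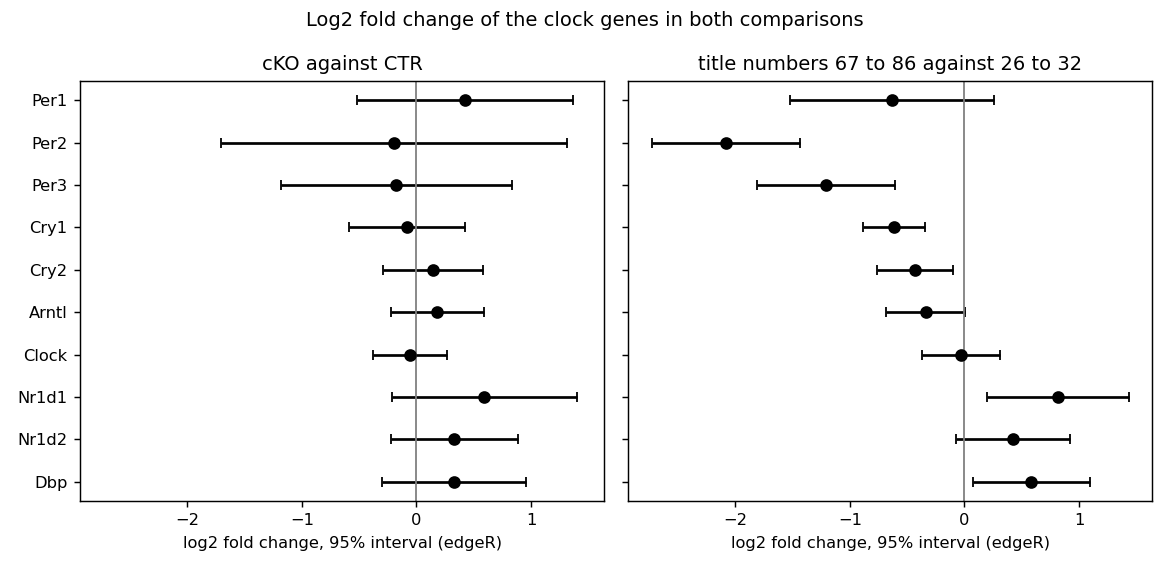
Log2 fold change of the 10 clock genes (points) with 95% intervals (bars) from edgeR, for cKO against CTR (left) and for title numbers 67 to 86 against 26 to 32 (right). All genotype intervals include 0, while those of Per2, Per3, Cry1, Cry2, Nr1d1 and Dbp in the right panel do not, and 0 of the 10 passed the adjusted threshold in either comparison.

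Between the title number ranges, the libraries numbered 67 to 86 had lower mean levels of the Per and Cry genes and higher mean levels of Nr1d1, Nr1d2 and Dbp. Of the 10 genes, 6 had an unadjusted p-value under 0.05, 4 lower (Per2, Per3, Cry1 and Cry2) and 2 higher (Nr1d1 and Dbp) in 67 to 86, against 11.6% of all genes tested (6.5% lower and 5.1% higher). The adjusted threshold was passed by 0 of the 10 by edgeR's quasi-likelihood test, Benjamini-Hochberg adjusted and by 0.0137% of all genes, or 2, Cldn1 and Srgn, which were chosen for mention after their values were seen. For 3 of the 10, Per2, Per3 and Cry1, the ranges did not overlap, against 6.87% of all genes. DESeq2's likelihood ratio test called these 3 genes at an adjusted p-value under 0.05, against 2.34% of all genes. The median of the 10 log2 fold changes was -0.39, and the median of their absolute values was 0.60, while the corresponding medians over all genes were -0.01 and 0.19.

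Per2, a repressor of ARNTL and CLOCK that also responds to signals from outside the cell, differed most. Its level was 32.2 and 21.0 CPM in CTR2 and CTR4 and 31.9 and 16.4 CPM in cKO2 and cKO4. In the other range it was 5.69 and 8.23 CPM in CTR1 and CTR3 and 4.196 and 6.09 CPM in cKO1 and cKO3. All 4 libraries numbered 67 to 86 were below all 4 numbered 26 to 32, with means of 6.05 ± 1.67 and 25.4 ± 7.93 CPM, a 4.19-fold difference. The raw counts of 137 to 265 against 629 to 1119 show that the lower level was still well counted. The log2 fold change of Per2 was -2.08 (SE 0.29, 95% interval -2.73 to -1.43, adjusted p = 0.101 by edgeR's quasi-likelihood test, Benjamini-Hochberg adjusted), and it ranked 7 of 14598 genes by p-value. In DESeq2's likelihood ratio test its adjusted p-value was 1.29e-09, and in edgeR with genes of at least 10 CPM on average it was 0.0439, and over all 18 alternatives it was at most 0.266. The exact permutation test over libraries gave p = 0.0286, the smallest that 4 against 4 allows.

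Per3, the period gene that is not required for the clock itself, had 10.97 and 11.1 CPM in CTR2 and CTR4 and 8.61 and 10.04 CPM in cKO2 and cKO4. In the range 67 to 86 it had 3.56 and 5.28 CPM in CTR1 and CTR3 and 3.25 and 5.47 CPM in cKO1 and cKO3. The ranges did not overlap, and the means were 4.39 ± 1.15 against 10.2 ± 1.15 CPM, a 2.32-fold difference. The log2 fold change was -1.21 (95% interval -1.81 to -0.60, adjusted p = 0.188 by edgeR's quasi-likelihood test, Benjamini-Hochberg adjusted). It is the gene whose promoter holds the pair of D-boxes, and the part of these in the difference was not tested. Per1 did not separate the ranges. It was at 33.8 and 8.88 CPM in CTR2 and CTR4 and 30.3 and 22.4 CPM in cKO2 and cKO4, and at 15.4 and 9.44 CPM in CTR1 and CTR3 and 24.1 and 13.5 CPM in cKO1 and cKO3. CTR4, in the range 26 to 32, had the lowest Per1 level of all libraries, and the log2 fold change of Per1 was -0.63 with a 95% interval from -1.53 to 0.26, and -0.12 without CTR2.

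Cry1, the cryptochrome that represses ARNTL and CLOCK most strongly, had 56.9 and 50.7 CPM in CTR2 and CTR4 and 57.4 and 48.6 CPM in cKO2 and cKO4. In the other range it had 38.4 and 35.7 CPM in CTR1 and CTR3 and 36.6 and 29.0 CPM in cKO1 and cKO3. The ranges did not overlap, and the means of 34.9 ± 4.09 and 53.4 ± 4.44 CPM differed 1.53-fold. The log2 fold change of Cry1 was -0.61 (95% interval -0.89 to -0.34, adjusted p = 0.142 by edgeR's quasi-likelihood test, Benjamini-Hochberg adjusted). Cry2 had 73.9 and 68.9 CPM in CTR2 and CTR4 and 73.0 and 66.3 CPM in cKO2 and cKO4, and 47.0 and 44.1 CPM in CTR1 and CTR3 and 48.2 and 71.4 CPM in cKO1 and cKO3. For Cry2 3 of the 4 libraries numbered 67 to 86 were below the other range, while cKO3 lay within it. Its log2 fold change was -0.43 with a 95% interval from -0.76 to -0.10.

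**Figure D3:**
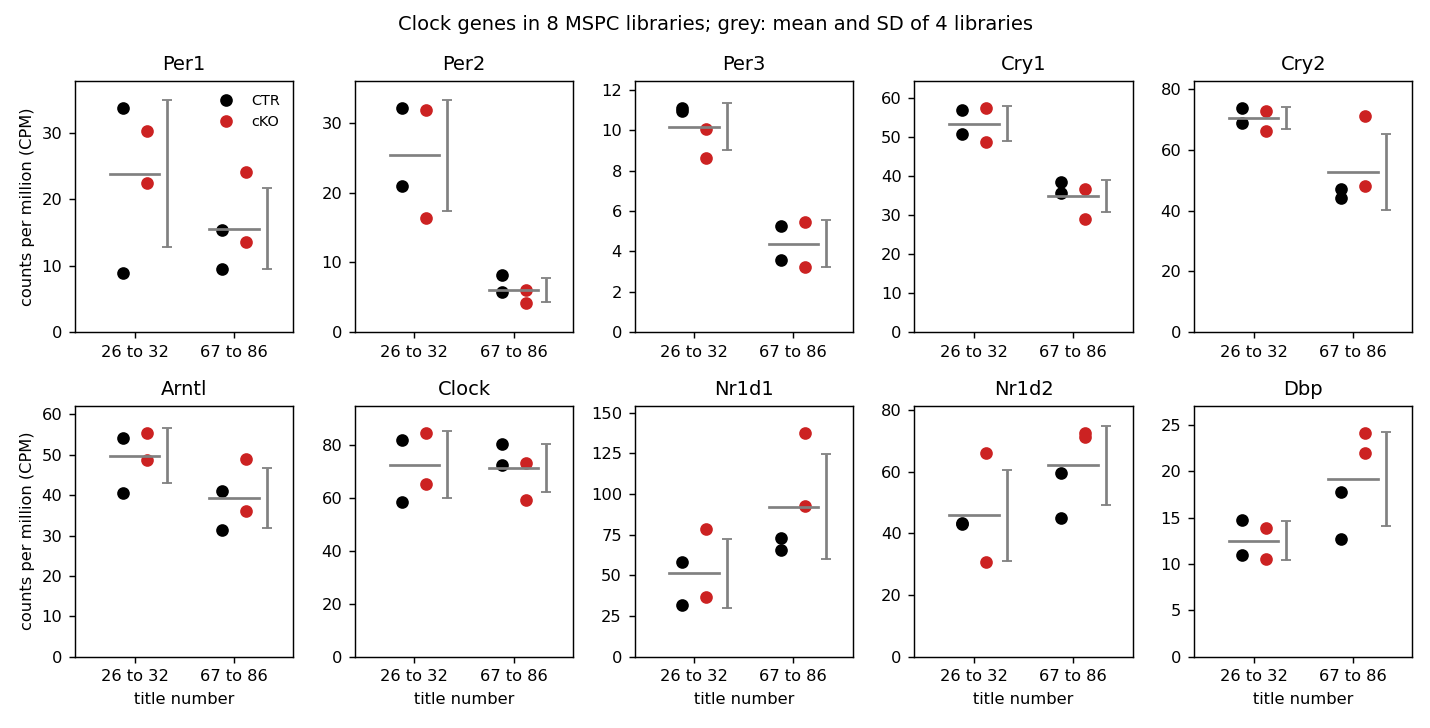
CPM of each clock gene (vertical axes, from 0) in the 8 libraries by title number range (horizontal axes), with CTR in black, cKO in red, and the mean (grey line) and SD (grey bar) of the 4 libraries of each range. Per2, Per3 and Cry1 separate the ranges (means of 6.05 against 25.4, 4.39 against 10.2 and 34.9 against 53.4 CPM), and the other 7 genes do not.

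Nr1d1 had 58.0 and 32.0 CPM in CTR2 and CTR4 and 78.3 and 36.5 CPM in cKO2 and cKO4. In the range 67 to 86 it had 73.2 and 65.5 CPM in CTR1 and CTR3 and 92.3 and 138 CPM in cKO1 and cKO3. Its mean was higher in 67 to 86, 92.2 ± 32.4 against 51.2 ± 21.3 CPM, but cKO2 of the lower range was above CTR1 and CTR3. The log2 fold change was 0.81 with a 95% interval from 0.20 to 1.43. Nr1d2, its close relative, had 43.2 and 43.5 CPM in CTR2 and CTR4 and 66.2 and 30.6 CPM in cKO2 and cKO4, and 59.7 and 45.1 CPM in CTR1 and CTR3 and 72.7 and 71.2 CPM in cKO1 and cKO3. The log2 fold change of Nr1d2 was 0.42, and its 95% interval, from -0.07 to 0.92, included 0. It was 0.21 without cKO4 and 0.64 without cKO2.

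Dbp, the output gene that ARNTL and CLOCK activate, had 14.7 and 10.97 CPM in CTR2 and CTR4 and 10.6 and 13.9 CPM in cKO2 and cKO4. In the range 67 to 86 it had 17.8 and 12.7 CPM in CTR1 and CTR3 and 22.0 and 24.2 CPM in cKO1 and cKO3. The mean was 19.2 ± 5.06 against 12.5 ± 2.08 CPM, and CTR3 overlapped with the lower range. The log2 fold change of Dbp was 0.58 with a 95% interval from 0.07 to 1.09.

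The activators differed least. Arntl had 54.1 and 40.5 CPM in CTR2 and CTR4 and 48.8 and 55.5 CPM in cKO2 and cKO4, and 31.4 and 41.0 CPM in CTR1 and CTR3 and 36.2 and 48.9 CPM in cKO1 and cKO3. Its log2 fold change was -0.34, with a 95% interval from -0.69 to 0.01. Clock had 58.5 and 82.0 CPM in CTR2 and CTR4 and 84.6 and 65.0 CPM in cKO2 and cKO4, and 80.4 and 72.3 CPM in CTR1 and CTR3 and 59.0 and 73.2 CPM in cKO1 and cKO3. Its means of 71.2 ± 8.91 and 72.5 ± 12.8 CPM gave a log2 fold change of -0.03 with a 95% interval from -0.37 to 0.31.

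The difference between the ranges had the same sign in the CTR and in the cKO libraries for 9 of the 10 genes, Clock being the exception. For Per2 it was -1.92 on the log2 CPM scale among CTR and -2.16 among cKO libraries, and for Cry1 it was -0.54 and -0.69. For Dbp it was 0.24 among CTR and 0.93 among cKO libraries. Since each of these values compares 2 libraries with 2, they are given without a test.

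Ratios of counts of 2 genes in the same library do not depend on how libraries are scaled. The log2 ratio of Dbp to Arntl was -1.87 in CTR2, -1.88 in CTR4, -2.20 in cKO2 and -1.997 in cKO4. It was -0.82 in CTR1, -1.68 in CTR3, -0.72 in cKO1 and -1.01 in cKO3. The ranges did not overlap, although CTR3 was close to the lower range, and the means differed by 0.93. Between genotypes the same ratio differed by 0.08, and the groups overlapped. The ratio of Nr1d1 to Per2 ranged from 2.98 to 4.49 in the libraries numbered 67 to 86 and from 0.60 to 1.29 in the others. The ratio of Dbp to Per3 ranged from 1.26 to 2.74 and from -0.02 to 0.46. For Nr1d1 to Arntl the ranges overlapped by 1 library on either side, since cKO2 at 0.680 was just above CTR3 at 0.677. These ratios use the genes compared above and are no separate evidence.

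**Figure D4:**
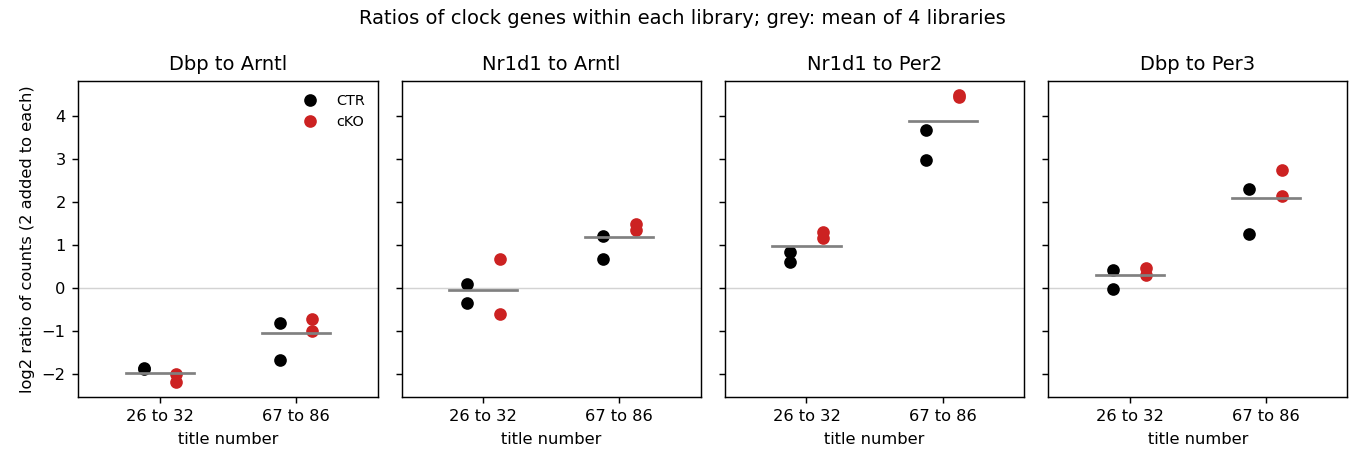
Log2 ratio of the counts of a pair of clock genes within each library (vertical axis, 2 counts added to each) by title number range, with CTR in black, cKO in red and the mean as a grey line. Dbp to Arntl, Nr1d1 to Per2 and Dbp to Per3 separate the ranges, with differences of the means of 0.93, 2.92 and 1.82, and Nr1d1 to Arntl does not.

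Of the 45 pairs of clock genes, 24 include Per2, Per3 or Cry1, whose libraries fell into separate clusters, and no correlation over all libraries is given for these. Among the other 21 pairs, the related receptors Nr1d1 and Nr1d2 had a Pearson's r of 0.85 over the 8 libraries (exact permutation p = 0.0059, adjusted over the 45 pairs 0.101) and a Spearman's rho of 0.90 (exact permutation p = 0.00456, adjusted 0.205). Without the 2 libraries farthest from the median of Nr1d1, r was 0.97, and with the values centered within the title number ranges it was 0.77 (exact permutation p = 0.0556, adjusted 0.757). No pair passed an adjusted p-value of 0.05, pooled or centered, and among centered pairs an unadjusted exact permutation p-value under 0.05 was reached by Cry2 and Nr1d1 with both measures (r = 0.72, rho = 0.62) and by Per1 and Per3 with Spearman's rho alone (-0.69).

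Outside the 10 clock genes, likeness to the pattern of Dbp was measured as Pearson's r of log2 CPM over the 8 libraries. Among 9397 genes that averaged 10 CPM or more, Lsm3 (r = 0.95), Tmem242 (0.93), Cby1 (0.93), Akip1 (0.92) and Podn (0.92) had the highest r to Dbp. Gm10524 (-0.96), Heca (-0.96), Tbk1 (-0.94), Dnajc7 (-0.94) and Gfm2 (-0.93) had the lowest. Tef, a relative of Dbp that binds the same D-box, had an r of 0.11. These values are a description of 8 libraries that fall into the title number ranges, and they were not tested.

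A further list of clock genes was read from the same fits. Of 24 genes listed, 20 were tested, and 0 passed the adjusted threshold in either comparison by edgeR's quasi-likelihood test, Benjamini-Hochberg adjusted. At an unadjusted p-value under 0.05 there was 1 gene of 20 in each comparison, which is below the 11.6% of all genes between the ranges and near the 4.43% between genotypes. The median absolute log2 fold change of the 20 between the ranges was 0.18, against 0.19 over all genes. The gene between the ranges was Npas2, which can take the place of Clock. Its mean was 62.7 CPM in 67 to 86 and 78.4 CPM in 26 to 32, with a log2 fold change of -0.34. The gene between genotypes was Arntl2, a relative of Arntl with only 6 to 60 counts per library and a log2 fold change of 1.97. The D-box factors Tef (75.4 and 77.7 CPM) and Hlf (5.86 and 8.74 CPM), the D-box repressor Nfil3 (85.8 and 99.2 CPM) and the activator Rora (93.2 and 105 CPM), each given for 67 to 86 and then 26 to 32, had overlapping ranges. Ciart, a repressor of ARNTL and CLOCK, was at 0 in 4 libraries and at most at 14 counts.

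Other measures were compared between the title number ranges. Of 10 glucocorticoid-responsive genes listed, which bear on the clock because glucocorticoids induce Per1 and Per2, all 10 had a log2 fold change below 0 in 67 to 86, with a median of -0.32. By edgeR's quasi-likelihood test, 0 of the 10 passed the adjusted threshold, and 3 were lower at an unadjusted p-value under 0.05, Sgk1 (-0.43), Ddit4 (-1.13) and Tsc22d3 (-0.65), against 6.5% of all genes. Their summed level was between 1500 and 2122 CPM in 67 to 86 and between 1490 and 2931 CPM in 26 to 32. The 12 hematopoietic markers summed to between 156 and 214 CPM in 67 to 86 and to between 56.0 and 127 CPM in 26 to 32, with Cd3e at 0 and with Hbb-bs as the most abundant on average. Igha held 91.5 CPM in 1 CTR library numbered 67 to 86 and was at 0 in 5 libraries. Without Igha that library would lie within the sums of 26 to 32, so the separation of these sums rests on that transcript. Of the 12 markers, 4 were tested, and 0 passed the adjusted threshold by edgeR's quasi-likelihood test. At an unadjusted p-value under 0.05, 2 were higher in 67 to 86, against 5.1% of all genes. These were Hbb-bs (84.1 against 45.6 CPM) and Hba-a1 (47.4 against 31.5 CPM), while 1 of the 4 had a log2 fold change below 0. The 8 MSPC markers, mostly Cxcl12, summed to between 58536 and 65842 CPM in 67 to 86 and to between 52916 and 59449 CPM in 26 to 32. Taken gene by gene, 6 of the 8 had a log2 fold change below 0 in 67 to 86 and 2 above, with a median of -0.13. The 6 osteolineage markers, mostly Ibsp, summed to between 9571 and 12893 CPM in 67 to 86 and to between 12517 and 15122 CPM in 26 to 32. Of the 5 tested, 3 had a log2 fold change above 0 in 67 to 86 and 2, Ibsp among them, below, with a median of 0.27. The 6 endothelial markers summed to at most 10.1 CPM in either range, with Tek at 0. The 5 neural and glial markers summed to between 174 and 243 CPM in 67 to 86 and to between 194 and 201 CPM in 26 to 32. The part of these measures in the clock gene values was not tested. In bulk RNA, fewer cells that express a gene and less RNA per cell cannot be told apart, and what the title numbers stand for, a property of the mice, their collection or their libraries, cannot be told apart here either.

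Some clock genes share exon bases with genes on the other strand, and whether the counting used strand is not given in the sources used here. Nr1d1 shares 263 bases, 8.55% of its exons, with Thra, which had 4089 to 5698 counts. Dbp shares 539 bases, 18.0% of its exons, with Sphk2, which had 933 to 1400 counts against 371 to 787 for Dbp. Cry2 shares 295 bases with D930015M05Rik, at 3 to 111 counts, and Arntl shares 33 bases with Gm45355, at most 12 counts. Reads from these shared bases cannot be told apart without strand, and the values of Nr1d1 and Dbp are uncertain to that extent. Per1, Per2, Cry1 and Nr1d2 overlapped no other gene of the annotation, and Per3 and Clock shared no exon base with the genes they overlap.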

How the data were processed

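RNA of MSPCs was sequenced in 8 libraries. The authors aligned reads to GRCm38 with HISAT2 and counted them with HTSeq, and they deposited raw counts of 52636 genes without normalization. Ensembl identifiers gave a symbol for 52403 of these genes. Coordinates and exon lengths are from GENCODE M21, which is not the release named in the methods.

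The 14598 genes with counts over 0 throughout all libraries entered edgeR 4.0.16 (TMM, quasi-likelihood test, Benjamini-Hochberg adjustment, threshold 0.05) in R 4.3.3. The genotype was tested without covariates, as the batch term of the study is not named in the labels, and the title number range with genotype as a term. CPM are counts per 1000000 of the TMM-scaled library, and RPKM are CPM per kilobase of exon. Log2 CPM and ratios used a prior count of 2. The exact permutation tests were two-sided and enumerated all 70 assignments of 4 against 4 libraries, and those of pairs all 40320 pairings or, when centered, the 576 within the ranges. DESeq2 1.42.0, limma-voom 3.58.1, other scalings and filters, the replicate number as a block and each library left out in turn were alternatives. The fit was tested on simulated data. Replicates are separate mice, and no libraries were duplicates.

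The 10 genes and all lists were chosen with earlier results of these data known. Genes named are the 10, genes of the lists where a count is broken down, and the 5 with the highest and the 5 with the lowest r to Dbp among tested genes of at least 10 CPM.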

Additional observations from a re-analysis of the deposited data

Results flagged for a closer look

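Nr1d2 stood out in a single library of each genotype. In CTR, replicate 1 (59.7 CPM) was above the 3 other libraries, which lay between 43.2 and 45.1 CPM. On the log2 CPM scale the gap was 0.867 of the range of the group. In cKO, replicate 4 (30.6 CPM) was below the 3 other libraries, which lay between 66.2 and 72.7 CPM, and the gap on the log2 CPM scale was 0.892 of the range. Both gaps exceed the 95% limit of Dixon's test for 4 libraries. In all, 22 groups were examined, of which chance alone would pass about 1.1, so that 2 such groups are close to that number. Without cKO replicate 4 the genotype log2 fold change of Nr1d2 was 0.55 rather than 0.33 (adjusted p = 0.960 by edgeR's quasi-likelihood test, Benjamini-Hochberg adjusted), and its adjusted p-value was at least 0.802 under all 19 alternatives.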

How the results depend on the processing

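The count of clock genes that differed between genotypes was 0 under all 20 alternatives. Over all genes, the genotype count of 0 became 47 with DESeq2's likelihood ratio test, 23 with its Wald test, and 1 each with filterByExpr and without a filter. Between the title number ranges, the 2 genes past the threshold became 342 and 380 with the DESeq2 tests, 6 with a mean of at least 10 CPM, 4 without a filter or at an adjusted p of 0.10, 1 with DESeq2 size factors, 0 without the genotype term, and 0 to 4 with a library left out. Of the clock genes, 3 passed with either DESeq2 test (Per2, Per3 and Cry1) and 1 with a mean of at least 10 CPM (Per2). The interaction count of 0 genes became 1 with that filter. The cause of these changes was not tested.

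With a library left out, the genotype log2 fold changes of Per2 (-0.91 to 0.32), Per3 (-0.42 to 0.053), Cry1 (-0.26 to 0.065) and Clock (-0.16 to 0.014) changed sign, as did that of Clock between the ranges (-0.15 to 0.078). The genotype log2 fold change of the other genes kept its sign, at 0.21 to 1.00 for Per1, 0.27 to 0.85 for Nr1d1, 0.22 to 0.55 for Nr1d2, 0.14 to 0.51 for Dbp, 0.07 to 0.33 for Arntl and 0.03 to 0.27 for Cry2. Between the ranges, Per1 was between -0.88 and -0.12 and Nr1d2 between 0.21 and 0.64, while Per2 stayed between -2.22 and -1.83, Per3 between -1.40 and -1.08 and Cry1 between -0.67 and -0.54. The difference in the ratio of Dbp to Arntl was 0.82 to 1.14. Whether replicate numbers pair the mice cannot be told from the values. Correlations of same-numbered libraries were 0.0572 to 0.176, and 2 of 4 were over 0.1. Each cKO library had its highest correlation with the CTR library of its own number. Differently numbered libraries of the same title number range also had positive correlations, from 0.0465 to 0.128. With the replicate block, 0 genes passed for genotype and 812 rather than 646 had an unadjusted p-value under 0.05, with 1 clock gene, Nr1d1, among them. At 4 libraries a group, no exact permutation p can be under 0.0286. In the genotype fit without a term for the title number range, the intervals of Per1, Per2, Per3 and Nr1d1 include differences of more than 2-fold. Intervals from the fit with that term are not given here.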
